A study of Canis lupus familiaris with 5 samples.

Results

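Potassium channel genes were taken as all features whose name starts with KCN, once any trailing suffix of digits had been stripped. They comprise the pore-forming subunits of potassium channels together with their auxiliary and regulatory subunits. Of 35555 features in the deposited tables, 94 fitted this rule, and the 44 with at least 20 unique molecular identifiers (UMIs, each standing for 1 counted transcript) over all libraries form the set described here. These 44 genes held 15282 of the 15553 UMIs of the 94. Of the other 50 genes, 37 had 1 to 19 UMIs and 13 had 0. KCNH7, KCNIP3 and KCNV2 lay just inside the limit with 20 UMIs each, and KCNJ12 with 19 and KCNA3 and KCNG3 with 18 each lay just outside it.

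Potassium channels let potassium leave the cell and so hold the membrane potential of vessel wall cells negative. In smooth muscle this closes voltage-gated calcium channels and favours relaxation, while in endothelium the calcium-activated channels couple a rise in calcium to hyperpolarisation that spreads to the smooth muscle below. Families differ in what opens them: voltage (Kv, Kv7 and the EAG, ERG and ELK group), calcium or sodium (KCNM, KCNN, KCNT), or neither, as in the inward rectifiers (KCNJ) and the 2-pore-domain leak channels (KCNK).

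Transcripts of single nuclei were counted by a droplet method (10x Genomics) in the cephalic vein of 2 mongrel dogs of 25 kg, with all 5 libraries labelled male. Undistended vein served as control (dogs 1 and 2). Distended vein (the same dogs) had been filled with saline holding papaverine and bivalirudin while the outflow was closed, during a harvest of approximately 30 minutes. The graft (dog 1 only) was vein placed as a carotid bypass and taken 24 h later, so the graft group is 1 animal. Graft vein had been distended at harvest in the same way. The comparisons ask how the vein wall changes with surgical distension and with the first day in the arterial circulation.

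After a filter of at least 100 detected genes, 765 and 1036 control nuclei, 2108 and 241 distended nuclei and 2705 graft nuclei remained. In all libraries 4 features without a gene symbol took between 2.98% (graft) and 70.4% (control dog 1) of all UMIs, and 24 features that name no gene took 0.588% to 11.5%. Levels below are therefore counts per 1000000 UMIs of all other features (CPM), which numbered 499629 and 339404 in the controls, 1497654 and 279555 after distension and 10899093 in the graft. A count of 3 UMIs corresponds to a level of 6.0, 8.84, 2.00, 10.7 and 0.275 CPM in the same order, so that low levels could be seen in the graft and not elsewhere. Levels are compared between libraries and cell classes for the same gene and never between genes. Barcodes shared between libraries numbered 0 to 3 per pair.

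The library of distended dog 2 stood apart. Of its 241 nuclei, 135 (56.0%) lay in 7 clusters in which over 75% of nuclei came from the graft, against 3 of 765 and 33 of 1036 control nuclei and 15 of 2108 nuclei of distended dog 1. Ribosomal protein transcripts took 8.23% of its other UMIs and 5.40% of those of the graft, against 0.486% to 2.36% in the remaining libraries. Fold changes and pooled ratios named below for distended vein are given with and without this library.

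Nuclei were clustered with the KCN genes left out of the clustering genes, and clusters were named from marker lists. Endothelial-like nuclei numbered 662 and 542 in the controls, 609 and 80 after distension and 748 in the graft, always with dog 1 before dog 2. Fibroblast-like nuclei in that order of libraries numbered 54, 415, 1226, 59 and 782, and smooth muscle-like nuclei 37, 14, 39, 1 and 36. Macrophage/monocyte-like nuclei (8, 27, 88, 2 and 7) and 131 lymphatic endothelial-like nuclei of distended dog 1 came mostly from vein before grafting. The 176 neutrophil-like nuclei came from the graft alone. No cluster took the neutrophil name at a coarser or finer clustering, or when the features without a gene symbol were left out of it. The neutrophil-like nuclei held the endothelial list at 4664 CPM, the neutrophil list at 1613 and the fibroblast list at 1174. The part of transcripts of other cells in the channel levels given below for this class was not tested. In the controls and distended dog 1, endothelial-like nuclei lay in clusters 0 to 3, fibroblast-like nuclei in clusters 4 and 5 and smooth muscle-like nuclei in cluster 7. Those of the graft lay in clusters 13 (745 nuclei), 12 (777) and 15 (36), named partly from other members of the same lists. In distended dog 2, all but 1 of the 80 endothelial-like nuclei lay in clusters 0 to 3, and 35 of the 59 fibroblast-like nuclei lay in cluster 12. The 2 earlier fibroblast clusters were split unequally. Cluster 4 held 53 and 340 nuclei of the controls and 139 of distended dog 1. Cluster 5 held 1, 75 and 1087 in the same order. The part of this split in the fibroblast levels and tests below was not tested. A further 956 graft nuclei in 3 clusters stayed unnamed. Cluster 9 had markers of macrophages and T cells. In its graft nuclei the neutrophil list stood at 1857 CPM, against 1613 in the neutrophil-like nuclei. The macrophage/monocyte list stood at 1279 in cluster 9 and the T cell list at 181. Cluster 10 was led by ribosomal protein and other short transcripts. Cluster 11 was led by DACH1, with 6 endothelial markers but the lymphatic gene PROX1 among its leading genes. In its graft nuclei the endothelial list stood at 10723 CPM, against 9447 in cluster 13, and the lymphatic list at 697. Cluster 11 held 341 graft nuclei and 85 of the 241 nuclei of distended dog 2. The endothelial-like classes of both libraries leave these nuclei out. In each class below, fewer transcripts per nucleus and fewer transcribing nuclei cannot be told apart, and in whole vein the mix of cells enters as well.

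**Figure D1:**
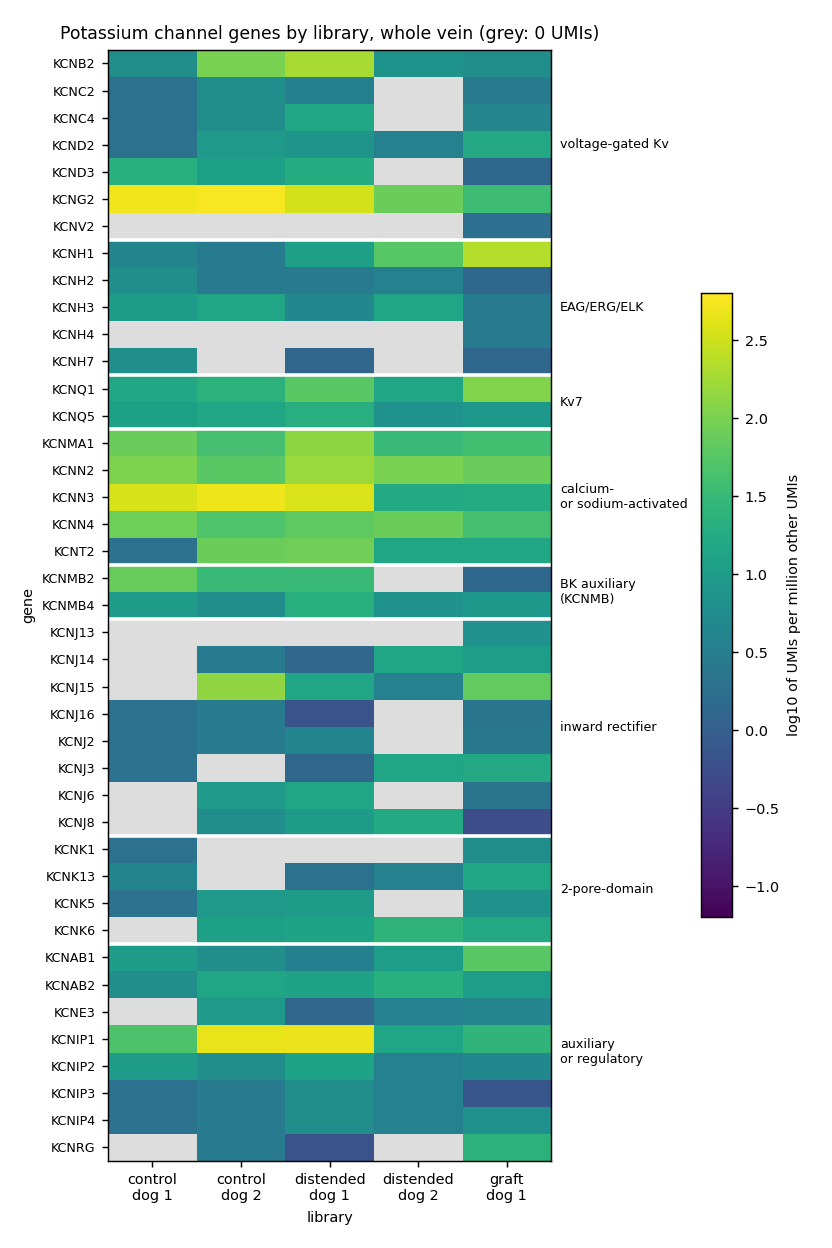
Level of 41 of the 44 potassium channel genes (rows, grouped by family) in the 5 libraries (columns), as log10 of CPM in whole vein; grey cells hold 0 UMIs. KCNG2, KCNN3 and KCNIP1 have their highest levels before grafting, and KCNH1 and KCNAB1 in the graft.

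The calcium-activated channels KCNN2 and KCNN3 had their highest pooled level before grafting in endothelial-like nuclei, and KCNN4 in endothelial-like and macrophage/monocyte-like nuclei. KCNN3 (the small-conductance channel SK3) had whole vein levels of 358 and 501 CPM in the controls, 373 and 17.9 in distended dogs 1 and 2, and 18.2 in the graft. The graft and distended dog 2 were thus low and the other 3 libraries high, and the distended libraries spanned the graft. In endothelial-like nuclei KCNN3 stood at 381 (95% Poisson interval 326 to 442), 794 (673 to 930) and 923 (843 to 1008) CPM in the controls and distended dog 1. It stood at 38.6 (4.67 to 139, 2 UMIs) in distended dog 2 and 28.0 (22.8 to 34.0) in the graft. Poisson intervals and count limits here cover counting error only. Over the 4 libraries before grafting, the pooled KCNN3 level was 665 CPM in endothelial-like and 144 in lymphatic endothelial-like nuclei.

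KCNN2 (SK2) did not follow KCNN3. Its whole vein levels were 106, 58.9, 157, 100 and 77.3 CPM in the order given above, a range in which the graft lay among the others. In endothelial-like nuclei KCNN2 stood at 92.5 and 98.6 CPM in the controls, 396 and 251 in distended vein and 139 in the graft. Both distended libraries were above both controls there, with an unadjusted p of 0.0184 (log2 fold change 1.61, SE 0.68) that did not pass the adjustment (adjusted p = 1). Without distended dog 2 the log2 fold change was 2.02 and without distended dog 1 it was 0.90 (adjusted p = 1 and 0.959). KCNN2 was the channel of this family with most UMIs in the graft, where 497 of its UMIs lay in endothelial-like nuclei and 138 in cluster 11.

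KCNN4 (the intermediate-conductance channel of endothelium and leukocytes) had whole vein levels of 82.1 and 50.1 CPM in the controls, 64.1 and 78.7 after distension and 41.7 in the graft, which was the lowest. In endothelial-like nuclei the values were 88.1, 62.3, 115, 154 and 28.5 CPM in the same order. Over the libraries before grafting, the pooled KCNN4 level was 98.4 CPM (81.6 to 118, 121 UMIs) in endothelial-like and 143 (61.7 to 282, 8 UMIs) in macrophage/monocyte-like nuclei. In the graft KCNN4 was also found in neutrophil-like nuclei (80.3 CPM), cluster 9 (101) and cluster 11 (104). The graft was below both controls in endothelial-like nuclei (log2 fold change -1.54, SE 0.82), which did not pass the test (adjusted p = 0.269).

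The large-conductance (BK) channel genes marked smooth muscle. KCNMA1, the BK pore, had 28 UMIs in 19 of 37 smooth muscle-like nuclei of control dog 1 (1145 CPM), 31 in 20 of 39 of distended dog 1 (1151) and 20 in 9 of 36 of the graft (294, 95% Poisson interval 179 to 453). Its partner KCNMB2, a subunit that inactivates the BK channel, had 33 UMIs (1349 CPM) in smooth muscle-like nuclei of control dog 1, 26 (965) in distended dog 1 and 10 (147, 70.4 to 270) in the graft. The 14 smooth muscle-like nuclei of control dog 2 held 1 KCNMA1 UMI (182 CPM, 4.6 to 1012) and 2 KCNMB2 UMIs (363 CPM, 44 to 1312), and the 1 such nucleus of distended dog 2 held none of either. Both genes were thus lower in the graft than in control dog 1 and distended dog 1, while the intervals of control dog 2 held the graft values. The smooth muscle marker list itself stood at 5386 CPM in the graft's smooth muscle-like nuclei, against 23882 in control dog 1, 29962 in control dog 2 and 25651 in distended dog 1. The part of that marker difference in the channel values was not tested. No test between groups was possible in this class, since each group had 1 library with at least 20 of its nuclei.

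In whole vein KCNMB2 stood at 74.1 and 32.4 CPM in the controls, 32.7 and 0 in distended vein and 1.38 in the graft. The controls were above the graft, while the distended libraries spanned it. KCNMA1 stood at 78.1, 41.2, 134, 32.2 and 39.0 CPM and overlapped between groups. KCNMA1 was not confined to smooth muscle: distended dog 1 had 134 CPM in its endothelial-like nuclei (71 UMIs in 36 nuclei, up to 12 in 1), and cluster 9 of the graft had 290 CPM (138 UMIs). A single unnamed graft nucleus held 33 KCNMA1 UMIs. KCNMB4, another BK subunit, had its highest pooled level before grafting in macrophage/monocyte-like nuclei (53.6 CPM, 11.1 to 157), from 3 UMIs and with an interval that overlapped that of endothelial-like nuclei (19.5 CPM, 12.5 to 29.0, 24 UMIs), and reached 5.89 to 21.4 CPM in whole vein. KCNMB1, known as the BK subunit of vascular smooth muscle, had 12 UMIs in all and was not among the 44. In the RefSeq gene table it lies within the span of KCNIP1, and how strand was counted is not stated.

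KCNT2, a sodium-activated channel, marked fibroblasts. Fibroblast-like nuclei held 87.2 (1 UMI), 209 and 163 CPM in the controls and distended dog 1, 129 (4 UMIs) in distended dog 2 and 53.1 in the graft. Endothelial-like nuclei had 0 to 5.19 CPM before grafting and 14.8 in the graft.

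Among the voltage-gated Kv genes, KCNG2 (a modifier subunit with no current of its own) marked the endothelium and KCNB2 (Kv2.2) fibroblasts. KCNG2 had whole vein levels of 510 and 572 CPM in the controls, 343 and 78.7 after distension and 36.7 in the graft, with no overlap between the groups. In endothelial-like nuclei KCNG2 stood at 546 (480 to 618) and 934 (803 to 1081) CPM in the controls, 857 (780 to 940) in distended dog 1, 173 (79.3 to 329, 9 UMIs) in distended dog 2 and 64.9 (56.8 to 73.8) in the graft. The lymphatic endothelial-like nuclei of distended dog 1 had 454 CPM (43 UMIs). The order was thus high in 3 libraries, with distended dog 2 and the graft lower, and the Poisson intervals of the graft and of distended dog 2 did not overlap.

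KCNB2 had whole vein levels of 6.0 and 97.2 CPM in the controls, 191 and 7.15 in distended vein and 5.96 in the graft. The 2 libraries with most fibroblast-like nuclei before grafting were the high ones. Within fibroblast-like nuclei KCNB2 stood at 87.2 (1 UMI), 252 (169 to 362) and 333 (294 to 376) CPM in the controls and distended dog 1, at 0 UMIs in distended dog 2 (3 counts there would be 96.7) and at 9.43 (5.39 to 15.3) in the graft.

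KCND3 (Kv4.3, a rapidly inactivating channel) had 36 of its 43 UMIs before grafting in smooth muscle-like nuclei. These held 11 UMIs (450 CPM) in control dog 1, 2 UMIs in 14 nuclei of control dog 2, 23 (854) in distended dog 1 and 10 (147) in the graft. The lower smooth muscle marker list of the graft class applies here too, and its part in the KCND3 values was not tested. KCND2 (Kv4.2) had 94 of its graft UMIs in cluster 12, the graft fibroblast cluster, at 55.7 CPM, and 27 in neutrophil-like nuclei. KCNC2, KCNC4 and KCNV2 stayed between 0 and 16 CPM in every library. Of the 45 graft UMIs of KCNC4, 40 lay in fibroblast-like nuclei, and all 20 UMIs of KCNV2 came from the graft.

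**Figure D2:**
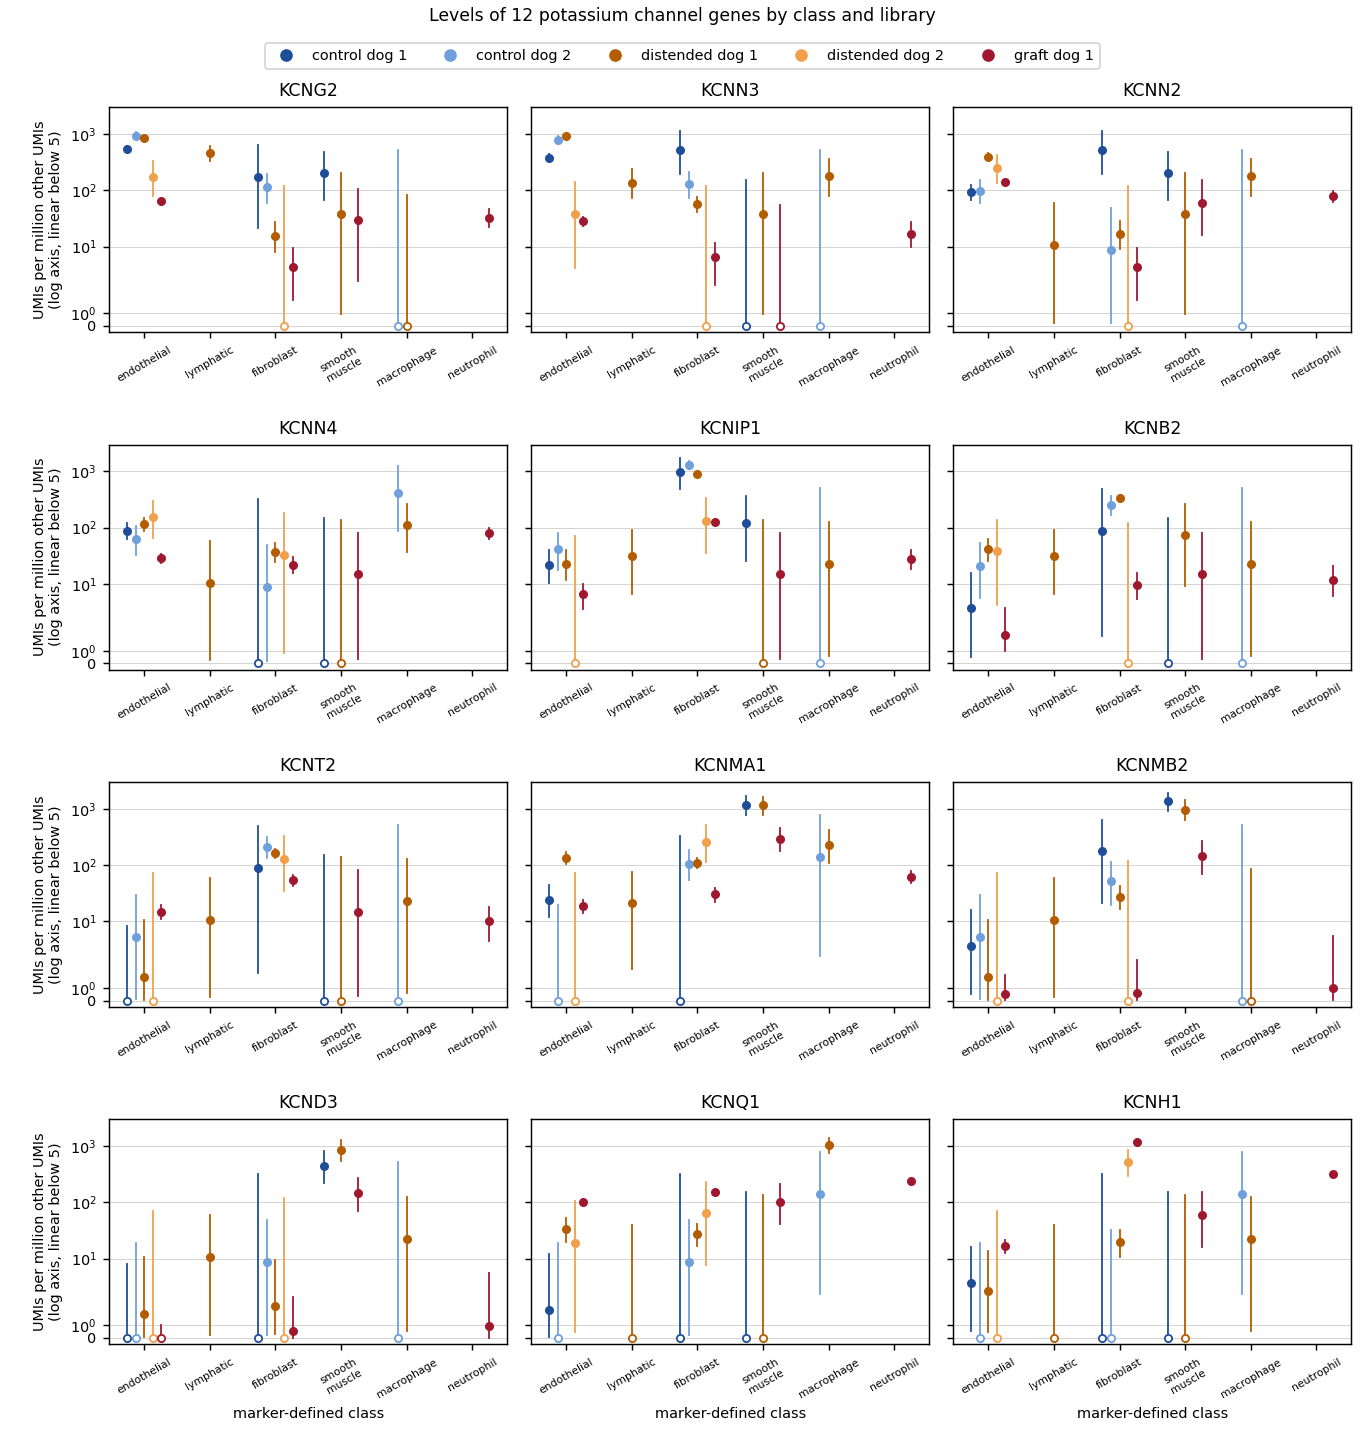
Levels of 12 potassium channel genes (CPM, log axis that is linear below 5) by marker-defined class and library; bars are exact 95% Poisson intervals, open circles mark 0 UMIs and classes with under 20 nuclei in a library are left out. KCNG2 and KCNN3 are highest in endothelial-like nuclei before grafting, KCNIP1 and KCNB2 in fibroblast-like nuclei, KCNMA1, KCNMB2 and KCND3 in smooth muscle-like nuclei, and KCNH1 in fibroblast-like nuclei of the graft.

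KCNH1 (EAG1, a voltage-gated channel best known from brain and from proliferating cells) had the highest UMI total of all 94 genes, and 98.5% of its 2513 UMIs came from the graft. In the RefSeq table KCNH1 overlaps HHAT, and KCNG2 overlaps SLC66A2. Whole vein levels were 4.00 and 2.95 CPM in the controls (3 UMIs together), 12 and 57.2 in distended dogs 1 and 2, and 227 in the graft. The groups did not overlap and stood in the order control, distended, graft. Of the graft's KCNH1 UMIs, 2012 lay in its fibroblast-like nuclei at 1186 CPM (1135 to 1239), and 524 of 782 such nuclei (67.0%, exact 95% interval 63.6 to 70.3) had at least 1. In endothelial-like nuclei of the same library, with a median of 4173 other UMIs per nucleus against 1802 in fibroblast-like nuclei, 45 of 748 (6.02%) had 1. Thinned to 500 UMIs per nucleus, which left out 6 fibroblast-like and 0 endothelial-like nuclei, the shares were 37.5% and 1.34%.

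Fibroblast-like nuclei held 0 KCNH1 UMIs in both controls, which allows up to 26.1 CPM (3 counts) in control dog 2 and up to 262 in control dog 1, where this class was thinly sampled. Those of distended dog 1 held 15 UMIs (19.4 CPM) and those of distended dog 2 held 16 (516 CPM, 295 to 837). Of these 16, 14 lay in the 35 nuclei that clustered with the graft fibroblasts and 2 in the 24 nuclei that clustered with control fibroblasts. Neutrophil-like nuclei of the graft held 318 KCNH1 UMIs (315 CPM) in 103 of 176 nuclei, with up to 28 in 1 nucleus. These nuclei had a median of 4354 other UMIs, and the fibroblast list stood at 1174 and the endothelial list at 4664 CPM in them; the part of such RNA in their KCNH1 level was not tested. Smooth muscle-like nuclei of the graft had 4 UMIs (58.7 CPM) and cluster 9 had 24 (50.5). KCNH2, KCNH3, KCNH4 and KCNH7 stayed at or below 14.7 CPM in every library, and all 31 UMIs of KCNH4 came from the graft.

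The Kv7 gene KCNQ1, a slowly activating channel, had its highest pooled level before grafting in macrophage/monocyte-like nuclei and was found in every graft class with 20 or more nuclei. Its whole vein levels were 16 and 23.6 CPM in the controls, 60.1 and 14.3 after distension and 112 in the graft, which was the highest. Before grafting, macrophage/monocyte-like nuclei held 53 UMIs at a pooled 947 CPM, of which 46 in 29 of 88 nuclei of distended dog 1 (1045 CPM, 765 to 1394). Control dog 1 had 6 in 4 of 8 nuclei (2131 CPM, 782 to 4638) and control dog 2 had 1 in 27 nuclei (140 CPM, 3.54 to 780), and the intervals of the 2 controls did not overlap. In the graft KCNQ1 stood at 103 CPM in endothelial-like, 153 in fibroblast-like, 236 in neutrophil-like and 103 in smooth muscle-like nuclei, and at 393 in cluster 9. In endothelial-like nuclei the other libraries had 2.20 and 0 CPM (1 UMI over both controls), 33.9 and 19.3, so that the graft was above all 4. Of the 18 UMIs of distended dog 1 there, 10 came from 1 nucleus.

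KCNQ5 also had its highest pooled level before grafting in macrophage/monocyte-like nuclei (232 CPM, 13 UMIs) and ranged from 7.15 to 20.7 CPM over libraries.

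Among the inward rectifiers, KCNJ15 (Kir4.2) was a gene of leukocyte clusters. Whole vein levels were 0 and 136 CPM in the controls, 14.7 and 3.58 in distended vein and 70.1 in the graft, so that the controls spanned all other libraries. Of the 46 UMIs of control dog 2, 44 lay in 13 of its 33 unnamed nuclei, and its 30 nuclei of cluster 9 had 2858 CPM. In the graft cluster 9 had 477 CPM (227 UMIs) and neutrophil-like nuclei had 287 (289 UMIs), against 59.5 in fibroblast-like and 24.6 in endothelial-like nuclei.

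KCNJ8 (Kir6.1, the pore of the vascular ATP-sensitive channel) stood at 0, 5.89, 10.0, 17.9 and 0.551 CPM and had 20 of its 22 UMIs before grafting in fibroblast-like nuclei. The distended libraries were the 2 highest. KCNJ3 (Kir3.1, a G protein-gated channel) stood at 2.00, 0, 1.34 and 14.3 CPM before grafting and 16.5 in the graft. Its graft UMIs lay in endothelial-like nuclei (79, at 22.1 CPM) and cluster 11 (64, at 83.2 CPM). KCNJ14 stood at 0, 2.95, 1.34, 14.3 and 10.7 CPM, with the distended libraries spanning the graft. KCNJ13 had 73 UMIs in the graft and 0 in the 4 libraries before grafting, whose floors lie at or above 2.00 CPM against 6.70 in the graft. In the RefSeq table KCNJ13 lies within the span of GIGYF2. KCNJ2, KCNJ6 and KCNJ16 stayed at or below 14.7 CPM.

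The 2-pore-domain leak channels were low in every library. KCNK6 (TWIK-2) stood at 0, 11.8, 13.4, 25.0 and 16.1 CPM, and distended dog 2 was the highest. KCNK13 stood at 0 to 4.00 before grafting and 15.0 in the graft, where endothelial-like nuclei had 99 of its UMIs (27.7 CPM). KCNK1 had 1 UMI before grafting and 66 in the graft (6.06 CPM). KCNK5 ranged from 0 to 10.0 CPM.

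Of the auxiliary and regulatory genes, KCNIP1, which encodes a calcium-binding partner of Kv4 channels, marked fibroblasts. Its whole vein levels were 48.0 and 468 CPM in the controls, 475 and 14.3 after distension and 26.3 in the graft, and the control and distended libraries overlapped widely. Within fibroblast-like nuclei KCNIP1 stood at 959 (479 to 1717), 1286 (1087 to 1511) and 898 (832 to 967) CPM in the controls and distended dog 1. It stood at 129 (35.1 to 330, 4 UMIs) in distended dog 2 and 124 (108 to 142) in the graft, so that 3 libraries were high and 2 low. Endothelial-like nuclei had 0 to 41.5 CPM.

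KCNAB1, a cytoplasmic beta subunit of Kv1 channels, stood at 10.0, 5.89, 3.34 and 10.7 CPM before grafting and 60.1 in the graft, above all others. Before grafting, 9 of its 15 UMIs lay in smooth muscle-like nuclei. In the graft it was found at 79.2 CPM in endothelial-like, 92.5 in fibroblast-like and 83.3 in neutrophil-like nuclei, whose Poisson intervals overlapped. KCNRG, a regulator of Kv1 assembly, had 2 UMIs before grafting and 260 in the graft (23.9 CPM), most densely in cluster 9 (135 CPM) and neutrophil-like nuclei (58.5). KCNAB2, KCNE3, KCNIP2, KCNIP3 and KCNIP4 stayed at or below 21.5 CPM, and of the graft UMIs of KCNE3, 25 lay in cluster 9 and 12 in neutrophil-like nuclei.

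**Figure D3:**
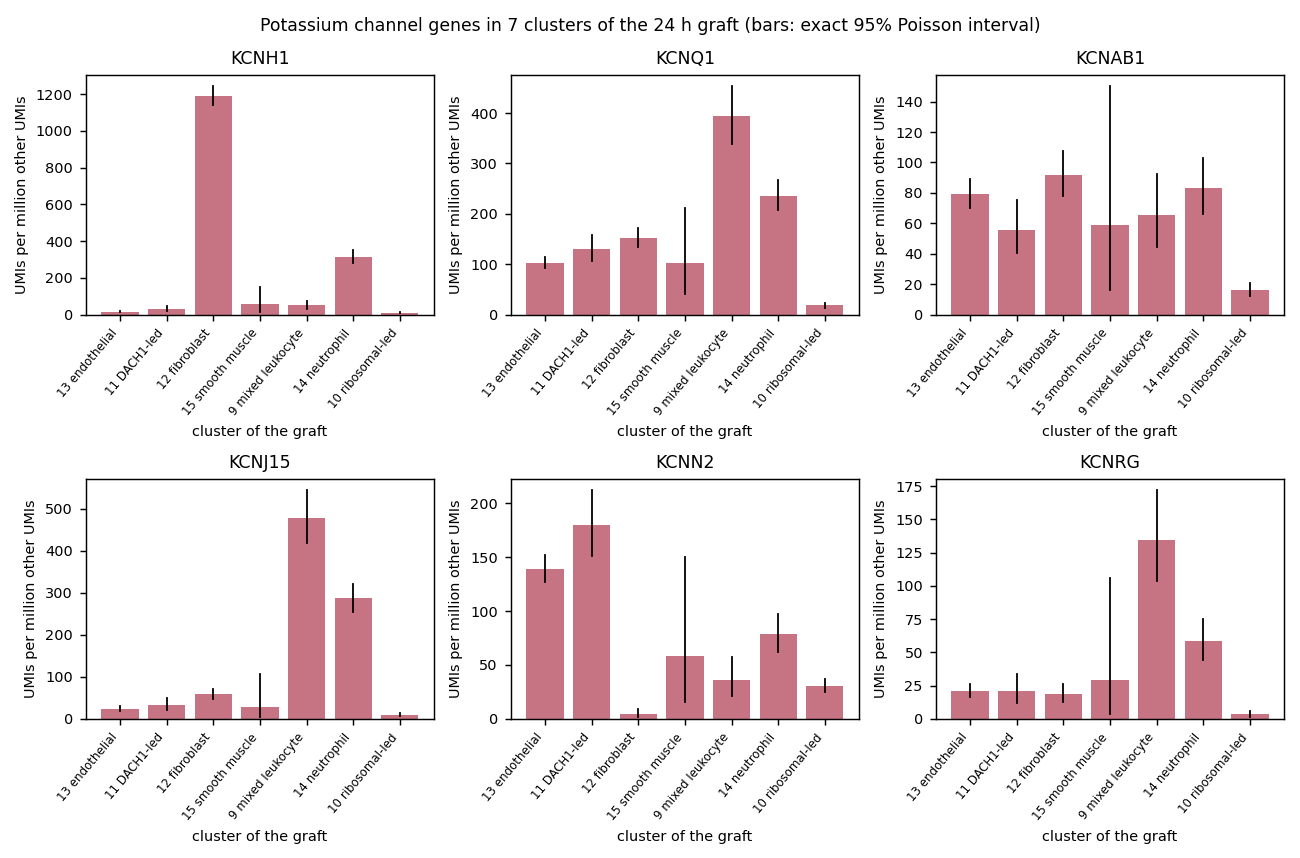
Levels (CPM) of 6 potassium channel genes in the 7 clusters that hold most nuclei of the 24 h graft; bars start at 0 and lines are exact 95% Poisson intervals. KCNH1 is highest in fibroblast cluster 12, KCNJ15, KCNQ1 and KCNRG in mixed leukocyte cluster 9 and KCNN2 in clusters 11 and 13, while KCNAB1 is spread over the 7 and lowest in cluster 10.

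Whole vein sums were tested across all genes with edgeR's quasi-likelihood test, in which the lone graft library is assumed to vary like the other groups. For distended against control, graft against control and graft against distended vein, 0.0% of 13170 tested genes passed an adjusted p of 0.05 in each comparison, and 0 of the 35 potassium channel genes that passed the filter on low counts did. At an unadjusted p under 0.05, 186, 1162 and 725 genes (1.41%, 8.82% and 5.5%) and 1, 8 and 6 potassium channel genes stood in the 3 comparisons. At an adjusted p under 0.05 DESeq2 called 0, 4 and 0 of the 35, beside 1, 117 and 31 of all 13170 genes. The median log2 fold change of the 35 genes was 0.20, -0.25 and -0.84, beside 0.08, 0.12 and 0.01 over all genes. Of the 35, 6 reached the filter's level in the graft alone.

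The libraries of distended and control vein did not overlap for 6 of the 35 genes, 4 with distended above (14.3% of all genes) and 2 with distended below (9.11%). The graft was above both controls for 12 (47.9% of all genes) and below both for 14 (28.7%), and above both distended libraries for 11 (36.6%) and below both for 10 (25.1%). For graft against control the 8 genes with an unadjusted p under 0.05 included KCNH1, KCNAB1 and KCNQ1, with higher values in the graft, and KCNG2, KCNMB2 and KCNN3, with lower values. DESeq2 called KCNH1 (log2 fold change 5.82, adjusted p = 0.0188), KCNG2 (-4.07, 0.0229), KCNN3 (-4.75, 0.0331) and KCNMB2 (-5.46, 0.0497). In edgeR the adjusted p of KCNH1 was 0.552 (log2 fold change 5.84, SE 1.13). Leaving out a distended library leaves the spread to be estimated from the 2 control libraries alone, and leaving out a control library from the 2 distended libraries alone. Calls gained, kept or lost in such fits, here and below, rest on that 1 pair of libraries. Over all alternatives the log2 fold change ran from 5.71 to 6.43 for KCNH1, -4.66 to -3.65 for KCNG2 and -6.03 to -4.33 for KCNN3. For distended against control, KCNH1 was the gene with the lowest p (log2 fold change 3.06, SE 1.07, adjusted p = 1), and without distended dog 1 it reached an adjusted p of 0.0295 (log2 fold change 3.82). Without distended dog 2 the log2 fold change was 1.75 (adjusted p = 1).

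In endothelial-like nuclei 22 of the 44 genes passed the filter, 7 of them through the graft alone, KCNAB1 included. For graft against control 4 of them were called, 2 higher (4.06% of 11124 genes) and 2 lower (3.48%), with 7.54% called in either direction. KCNQ1 rose by 5.86 on the log2 scale (SE 1.22, adjusted p = 0.000341), from 1 UMI over both controls to 368, a ratio of pooled levels of 66.6 (95% counting interval 11.9 to 2638). KCNAB1 rose by 5.49 (SE 1.33, adjusted p = 0.00285), from 1 UMI to 283. Since KCNAB1 entered the test only through its graft counts, this call is a description of a gene that had to be higher there. Without control dog 1, which held each of these single UMIs, the ratios became lower limits of 6.61 for KCNQ1 and 5.09 for KCNAB1, and both calls remained (adjusted p = 0.0114 and 0.0344).

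The 2 endothelial channel genes that fell in the graft were KCNN3 and KCNG2. KCNN3 fell by 4.52 on the log2 scale (SE 1.14, adjusted p = 0.00422), a pooled level 18.0 times lower than in the controls (14.4 to 22.8), and KCNG2 fell by 3.64 (SE 1.06, adjusted p = 0.0178), 10.2 times lower (8.67 to 12). Without control dog 1 the pooled KCNN3 ratio was 0.0352 and without control dog 2 it was 0.0735. Without control dog 2, KCNG2 no longer passed (adjusted p = 0.0563). The summed endothelial marker list stood at 15893 and 14945 CPM in the controls and 9444 in the graft, and its part in both results was not tested. Blocked by dog, 0 of the 4 calls held (adjusted p 0.0645 for KCNQ1, 0.12 for KCNAB1, 0.14 for KCNN3 and 0.142 for KCNG2). The block leaves fewer residual degrees of freedom than the 2 of the main fit. A call lost with it, here and below, cannot be told from lower power. In DESeq2 KCNG2 alone was called (adjusted p = 0.0241), beside 152 over all genes. At a coarser clustering (Leiden resolution 0.4) KCNN3 and KCNG2 missed the threshold (0.0515 and 0.0504). Neither was called when clustered without the 4 dominant features. Each of the 2 lost its call in 4 of 12 alternatives.

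For graft against distended vein, endothelial-like nuclei gave 2 calls among the 22 genes (3.4% of all genes were called), KCNAB1, again tested only through its graft counts, higher (1.97% of all genes were called higher) and KCNN3 lower (1.43% lower). KCNAB1 went from 0 UMIs in both distended libraries to 283 (adjusted p = 0.00256), at least 15.4-fold higher. KCNN3 fell by 4.24 on the log2 scale (SE 1.12, adjusted p = 0.0117), and this rested on distended dog 1: without it the log2 fold change was -0.04 (adjusted p = 0.996), and the lower limit for KCNAB1 was 1.37-fold (adjusted p = 0.646). Without distended dog 2, both calls remained (adjusted p = 0.000401 for KCNN3 and 0.00501 for KCNAB1). With the dog as a block, neither did (0.26 for KCNN3 and 0.137 for KCNAB1). DESeq2 called 0 of the 22 genes in this comparison. Neither KCNN3 nor KCNAB1 was called at a coarser clustering or when clustered without the dominant features. KCNN3 lost its call in 7 of 12 alternatives and KCNAB1 in 4 of 11.

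Distended against control vein gave 0 calls among the 22 genes in endothelial-like nuclei with edgeR, where 0.0989% of all genes were called (0.036% higher and 0.0629% lower), and 0 with DESeq2. KCNQ1, KCNMA1 and KCNN2 had unadjusted p-values under 0.05, all with a positive log2 fold change, where 3.18% of all genes had such a p. KCNQ1 had 1 UMI in the controls and 19 in the distended libraries (ratio of pooled levels 21.1, counting interval 3.35 to 876). The ratio was 21.9 without distended dog 2, 12.5 without distended dog 1 and 14.8 without control dog 2, and without control dog 1, which held the single UMI, it became a lower limit of 2.09. For KCNMA1 the pooled ratio was 7.16 (3.77 to 15.0), but 71 of 71 distended UMIs came from dog 1, and distended dog 2 and control dog 2 both had 0. Without distended dog 2 the KCNMA1 ratio was 7.87, and the pooled KCNN2 ratio was 4.06 with and 4.19 without that library.

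**Figure D4:**
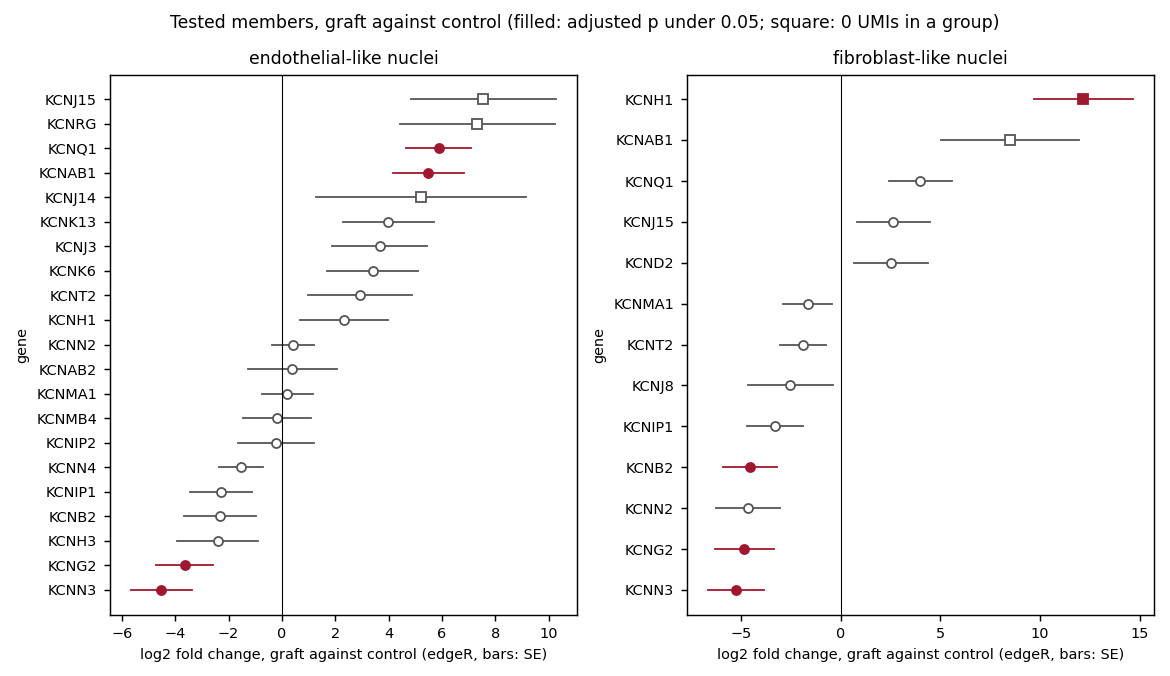
Log2 fold change (x axis) of graft against control for the named potassium channel genes that passed the filter in endothelial-like (left) and fibroblast-like nuclei (right), with the SE as bars; filled marks have an adjusted p under 0.05 and squares have 0 UMIs in a group. KCNQ1 and KCNAB1 are filled at the right and KCNN3 and KCNG2 at the left among endothelial-like nuclei, and KCNH1 lies at the far right among fibroblast-like nuclei.

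In fibroblast-like nuclei 13 of the 44 genes passed the filter, 3 of them (KCNAB1, KCND2 and KCNJ15, none of which was called) through the graft alone. For graft against control 1 was called higher (0.597% of 7534 genes) and 3 lower (2.35%), with 2.95% called in all. KCNH1 went from 0 UMIs in both controls to 2012 (adjusted p = 0.000795), at least 50.0-fold higher. The limit falls to 4.53-fold without control dog 2, which held 415 of these nuclei against 54 in control dog 1, and the call is then lost (adjusted p = 0.477). It held with the dog as a block (adjusted p = 0.0115), and not in DESeq2 (adjusted p = 0.323). Against distended vein the pooled KCNH1 level was 30.8 times higher in the graft (21.6 to 45.5), which was not called (log2 fold change 2.54, SE 1.10, adjusted p = 0.241). The ratio was 61.2 without distended dog 2 (log2 fold change 5.60) and 2.30 without distended dog 1 (1.32). Besides the graft, 1 library reached the filter's level for KCNH1 in this class. A fit without that library may test KCNH1 through its graft counts alone.

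The 3 genes called lower in fibroblast-like nuclei of the graft were KCNN3, KCNB2 and KCNG2. KCNB2, the fibroblast gene among them, fell by 4.58 on the log2 scale (SE 1.35, adjusted p = 0.0313), a pooled level 25.1 times lower (13.3 to 49.4), and by 4.67 (SE 1.33, adjusted p = 0.0256) against distended vein, where it was the 1 call among the 13 and 2.96% of all genes were called (2.0% lower and 0.956% higher). The first call was lost without control dog 2 (log2 fold change -2.69, adjusted p = 0.851), and the second without distended dog 1 (5.15, adjusted p = 1); distended dog 2 had 0 UMIs. Without distended dog 2 both held (0.0487 and 0.00374). KCNN3 (log2 fold change -5.26, SE 1.41, adjusted p = 0.0162) and KCNG2 (-4.85, SE 1.46, adjusted p = 0.0374) rested on 21 and 15 control UMIs, most in nuclei with 1 each, in libraries where endothelial-like nuclei held both genes at 381 to 934 CPM. The endothelial list stood at 4361 and 1982 CPM in those control fibroblast-like nuclei and at 498 in the graft's, and its part in both results was not tested. Without control dog 1 neither passed (adjusted p = 0.0767 for KCNN3 and 0.0792 for KCNG2), nor without control dog 2 (0.147 and 0.851). With the dog as a block KCNB2, KCNN3 and KCNG2 were not called (0.418, 0.275 and 0.547), and against distended vein KCNB2 was not either (0.195). DESeq2 called 0 of the 13 genes against control or distended vein, beside 64 and 30 over all genes. Against control KCNG2 lost its call in 6 of 8 alternatives, KCNN3 in 5 of 12 and KCNB2 in 4 of 12.

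Distended against control vein gave 0 calls in fibroblast-like nuclei with edgeR among all 7534 genes (0.0%; 1.45% had an unadjusted p under 0.05) and 0 with DESeq2 among the 13. Of the 13, 4 had an unadjusted p under 0.05. KCNH1 had 0 UMIs in the controls and 31 in the distended libraries, at least 1.62-fold higher (adjusted p = 0.847), a limit that did not hold without distended dog 2 (0.817) or without control dog 2 (0.147). KCNG2, KCNN3 and KCNN2 had negative log2 fold changes of -3.07, -2.27 and -2.78 (adjusted p = 1 for each), and of -2.77, -1.60 and -1.58 without distended dog 2 (adjusted p = 1 for each). Distended dog 2 held 0 UMIs of these 3 genes, and without control dog 1 the pooled KCNN2 ratio was above 1 (1.86, against 0.292 with it).

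Genes that work beside the channels were read from 2 lists. Of 17 channel partners (sulfonylurea receptors, Kv4 partners, anchoring proteins and HCN channels), 7 passed the filter in whole vein, 5 in endothelial-like and 4 in fibroblast-like nuclei, and 0 were called in any of the 9 comparisons with edgeR or DESeq2. For graft against control in whole vein, 2 of the 7 had an unadjusted p under 0.05, as did 8.82% of all genes: DPP6, a Kv4 partner (log2 fold change -3.89, SE 1.28, adjusted p = 0.559), and HCN4, a pacemaker channel (-5.19, SE 2.21, adjusted p = 0.564). Of 42 calcium and membrane potential genes, 26 passed the filter in endothelial-like nuclei and 3 were called for graft against control, 1 higher and 2 lower, where 7.54% of all genes were called (4.06% higher and 3.48% lower). ATP1B3, a sodium pump subunit, stood at 15.4 and 41.5 CPM in the controls, 69.7 and 96.4 in distended vein and 257 in the graft (log2 fold change 3.16, SE 0.79, adjusted p = 0.00383). RYR2, a calcium release channel, stood at 1264 and 182 CPM in the controls, 541 and 19.3 after distension and 89.0 in the graft (-3.14, SE 1.05, adjusted p = 0.0463), and CACNA2D3, a calcium channel subunit, fell by 2.82 (SE 0.93, adjusted p = 0.0411). Blocked by dog, none of the 3 passed (adjusted p 0.0835 for ATP1B3, 0.0942 for RYR2 and 0.0861 for CACNA2D3), and DESeq2 called 0 of them. The median log2 fold change of the 26 was -0.34, beside 0.08 over all genes. In the other 8 comparisons 0 genes of this list were called by edgeR or DESeq2, and 0 to 4 had an unadjusted p under 0.05.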

How the data were processed

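Nuclei were isolated from frozen vein and libraries made with Chromium 3' v3.1 chemistry, per the labels' protocols. The deposited files hold UMI counts per feature and barcode, made by the authors with Cell Ranger 7.0.0 per the submitters' processing notes; the build and the use of strand are not given in the sources used here; coordinates are therefore left out. Of 7391 barcodes, 536 with under 100 detected genes were removed.

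Nuclei were clustered with scanpy 1.11.5 (2000 variable genes without KCN features, 20 principal components, 15 neighbours, Leiden resolution 0.8, 16 clusters). Clusters were named from 15 marker lists. A name needed at least 3 markers at 2 or more times their level elsewhere and no other list within 1 marker. A cluster also stayed unnamed if another list had more of its 10 leading genes, as in cluster 11. The same held if its nuclei had few UMIs and no marker of its list was among the leading genes. These naming limits were set after the data were seen. A doublet caller marked 42 nuclei (0.613%), which were kept and left out in an alternative. Levels were computed over UMIs outside the 4 dominant and 24 unassigned features, a denominator that departs from the planned total.

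Counts were summed per library and class, for libraries with at least 20 nuclei of it, and tested with edgeR 4.0.16 (R 4.3.3; quasi-likelihood, TMM, filterByExpr, Benjamini-Hochberg adjustment over all genes tested); DESeq2 1.42.0 was an alternative. The replicates are 2 dogs, and control and distended vein come from the same dogs per the labels, so the dog was also fitted as a block. Deviations of control and distended vein from their group means correlated at -0.304 over 13170 genes. The main fits had 2 residual degrees of freedom, and fits with the block or with a library left out had fewer. On simulated counts with 16-fold changes, 31.5%, 81% and 40.6% of the changed genes were recovered for graft against control in whole vein, endothelial-like and fibroblast-like nuclei, and 0.5%, 0% and 0% of 4-fold changes. Changes were simulated only in genes above a minimum mean level and with the spread held within limits. These rates therefore do not cover channel genes of low level. Folds against 0 counts use 3 counts over the group, and intervals are exact at 95%.

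Values are given in full for the 12 genes with most UMIs outside the graft and the 12 with the lowest p in each whole vein comparison. Values of 3 of the 44 genes are not reported here, though counts over the set include them. The genes and lists were chosen with earlier results of these data known. Of the 44 genes, 30 overlap another gene in the RefSeq table of UU_Cfam_GSD_1.0, so that their reads may be shared.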

Additional observations from a re-analysis of the deposited data

Results flagged for a closer look

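In 3 genes the ratio of pooled graft and control levels pointed in opposite directions in endothelial-like and fibroblast-like nuclei, and in 1 of them so did the ratio of graft to distended levels. The differences between the classes were not tested. For KCNN2 the graft to control ratio was 1.47 in endothelial-like and 0.0852 in fibroblast-like nuclei, a difference of 4.11 on the log2 scale; the fibroblast value rests on 7 control UMIs, 6 of them in control dog 1. For KCNN4 the ratios were 0.355 and 2.76 (difference -2.96), the latter against 1 control UMI. For KCNT2 they were 9.59 and 0.268 against control (difference 5.16) and 8.64 and 0.329 against distended vein (difference 4.72), with 1 endothelial UMI in each of the earlier groups.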

How the results depend on the processing

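Of the 44 genes reported, 26 had at least 20 UMIs outside the graft. Counts of all genes called moved as follows, with potassium channel genes after each. Whole vein, distended against control: DESeq2 1, no filter on low counts 11, leaving out 1 library 0 to 219 (channel genes 0 to 3). Whole vein, graft against control: DESeq2 117 (4), no filter 287 (3), leaving out 1 library 0 to 646 (0 to 5). Whole vein, graft against distended: DESeq2 31, no filter 144, leaving out 1 library 0 to 432 (0 to 4). Endothelial-like, distended against control: DESeq2 1, Leiden resolution 0.4 gave 2 and 1.5 gave 6, clustering without the 4 dominant features 0, sums without them 6, leaving out 1 library 11 to 55 (0 to 1). Endothelial-like, graft against control: DESeq2 152 (1), resolution 0.4 gave 360 (2), clustering without the dominant features 353 (2), leaving out 1 library 544 to 914 (3 to 4). Endothelial-like, graft against distended: DESeq2 38 (0), resolution 0.4 gave 149 (0) and 1.5 gave 233 (1), clustering without the dominant features 123 (0), sums without them 237 (1), leaving out 1 library 32 to 700 (0 to 4). Fibroblast-like, distended against control: clustering without the dominant features 12, leaving out 1 library 0 to 3 (0 to 0). Fibroblast-like, graft against control: DESeq2 64 (0), no filter 42 (1), leaving out 1 library 5 to 311 (0 to 5). Fibroblast-like, graft against distended: DESeq2 30 (0), clustering without the dominant features (2), no filter 1010 (5), leaving out 1 library 0 to 1832 (0 to 8). With the dog as a replicate block the counts were 0 for endothelial-like nuclei, distended against control, 73 (0) for graft against control and 0 (0) for graft against distended; in fibroblast-like nuclei they were 9 (1) for graft against control and 123 (0) for graft against distended. A crossed replicate block gave 9 genes in whole vein for distended against control; it, the sums without the dominant features and the pooled ratios without each library were chosen after seeing the data.

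Without distended dog 1, whole vein log2 fold changes reversed for KCNQ1 (distended against control, -0.62) and, for graft against distended, for KCNMB2 (5.08), KCNN3 (0.046) and KCNIP1 (0.90), as did KCNB2 in fibroblast-like nuclei (5.15) and, for distended against control, KCNMA1 in endothelial-like nuclei (-7.02, with a pooled ratio of 0.0). Without control dog 2, KCNJ15 reversed in whole vein (distended against control, 8.18). Over the libraries left out, these values ran from -4.32 to 8.18 for KCNJ15, -0.62 to 1.62 for KCNQ1, -4.67 to 5.08 for KCNMB2, -4.50 to 0.046 for KCNN3, -4.31 to 0.90 for KCNIP1, -5.43 to 5.15 for KCNB2 and -7.02 to 9.65 for KCNMA1, whose pooled ratio ran from 0.0 to 7.87. The pooled KCNN2 ratio in fibroblast-like nuclei, distended against control, ran from 0.0 to 1.86, the latter without control dog 1. The cause was not tested. Of the other alternatives for single genes, 517 kept direction and side of the threshold, 42 lost a call and 23 gained one. Genes for which DESeq2 gave no adjusted p were left out of its comparison. The tests planned in smooth muscle-like nuclei could not be fitted. Depth limits all libraries before grafting: 3 counts are 2.00 to 10.7 CPM there and 0.275 in the graft.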
